A study of Mus musculus with 3 samples.

Results

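The Sox genes described here are Sox2, Sox4, Sox5, Sox6, Sox7, Sox8, Sox11, Sox13, Sox17 and Sox18, 10 genes chosen by name as Sox genes of mesenchyme, endoderm and vessels. Sox9 and Sox10 were left out of the set. They fill 11 of the 33762 rows of the table, because Sox4 has a second, shorter row inside its main one. Every gene had at least 162 counts in each library, so all 10 passed the count minimum in all 3 comparisons. Polyadenylated RNA was sequenced from 3 segments of the wild-type Bl6/C57 mouse gut at E13.5, namely presumptive ileum, caecum and colon. Each tissue had 1 sample. The small intestine had been cut into 3 portions of equal size, of which the presumptive ileum is used here, and markers of epithelium, mesenchyme, vessels, muscle and nerve cells were all present in each segment. Whether a sample held 1 embryo or several is not given in the sources used here.

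Sox proteins are transcription factors that bind DNA through a shared HMG box and bend it. They are sorted into groups by the likeness of their sequences, and members of a group often work in the same cells. SoxC genes (Sox4, Sox11) act in progenitors and in neurons that are beginning to differentiate, and SoxD genes (Sox5, Sox6, Sox13) encode proteins with a coiled coil, known best from cartilage. Sox8, of the SoxE group, acts with its relatives in neural crest, Sox2, of SoxB1, in the foregut and in neural progenitors, and SoxF genes (Sox7, Sox17, Sox18) in endothelium, with Sox17 also in early endoderm.

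Of the 10 genes, 8 stayed within 2-fold in every comparison. Sox11 was the only member at least 2-fold higher in the caecum library than in the others, Sox13 was at least 2-fold lower in colon than ileum, and Sox8, among the 8, lay just under 2-fold for caecum over colon. To give the regulatory sequence beside the values, the window from 250 bases before to 50 bases after the annotated start is shown for these 3 genes. It is also shown for Sox4, the relative of Sox11 in the SoxC group, which had the same order of segments but stayed within 2-fold. RefSeq entries were matched for 7 of the 10 genes. The sequences are RefSeq's, from GRCm38.p6, read 5′ to 3′ on the strand of the gene. Sox11 lies at chr12:27342669-27342968, Sox4 at chr13:28953650-28953949, Sox8 at chr17:25570637-25570936 and Sox13 at chr1:133424163-133424462, all on the minus strand. Capitals mark matches, on either strand, to 4 motifs: TATAAA, which is the motif of the TATA box, CCAAT, which names the CCAAT box, GGGCGG for the GC box, and ACAAT for the core that Sox proteins bind. No match overlaps another in these windows.
Sox11: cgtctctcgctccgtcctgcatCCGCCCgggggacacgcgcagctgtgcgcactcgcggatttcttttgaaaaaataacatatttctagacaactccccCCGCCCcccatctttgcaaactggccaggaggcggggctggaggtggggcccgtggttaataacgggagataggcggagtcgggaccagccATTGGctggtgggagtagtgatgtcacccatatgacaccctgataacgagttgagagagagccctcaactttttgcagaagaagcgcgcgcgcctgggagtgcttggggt
Sox4: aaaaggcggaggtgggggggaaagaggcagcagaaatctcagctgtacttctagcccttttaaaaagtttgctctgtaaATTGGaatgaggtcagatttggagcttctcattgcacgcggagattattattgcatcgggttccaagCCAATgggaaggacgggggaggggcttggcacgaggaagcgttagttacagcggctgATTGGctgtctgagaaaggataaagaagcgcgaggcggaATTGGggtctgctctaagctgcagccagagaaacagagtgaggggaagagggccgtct
Sox8: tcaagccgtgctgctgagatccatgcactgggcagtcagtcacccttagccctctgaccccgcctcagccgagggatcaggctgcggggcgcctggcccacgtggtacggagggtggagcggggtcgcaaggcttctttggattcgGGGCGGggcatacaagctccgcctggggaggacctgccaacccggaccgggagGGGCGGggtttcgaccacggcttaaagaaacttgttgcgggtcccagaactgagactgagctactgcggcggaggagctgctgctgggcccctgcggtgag
Sox13: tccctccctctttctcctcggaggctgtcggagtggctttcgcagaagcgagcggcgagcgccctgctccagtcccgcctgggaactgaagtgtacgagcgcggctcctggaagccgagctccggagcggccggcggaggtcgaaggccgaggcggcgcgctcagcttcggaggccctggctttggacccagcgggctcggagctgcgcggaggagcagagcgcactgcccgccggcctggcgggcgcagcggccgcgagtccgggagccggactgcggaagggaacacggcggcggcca

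The 4 windows differ in these letters. Sox4 holds 4 CCAAT matches and no GC box, while Sox11 holds 1 CCAAT match and 2 GC boxes. Sox8 holds 2 GC boxes only, and Sox13 holds no match to any of the 4 motifs. Among 32544 promoter windows of the same length, 37.4% hold CCAAT, 35.9% GGGCGG, 30.8% ACAAT and 13.6% TATAAA. None of the 4 windows shown holds TATAAA or ACAAT. The GC content of the Sox13 window was 73.3%, against 52.0% for Sox4, 58.7% for Sox11, 66.3% for Sox8 and a median of 53% over all windows. These matches describe the letters only, and binding was not measured.

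Levels below are RPKM, which the authors scaled to gene length and library depth. Folds are ratios of scaled counts, with a 95% interval in brackets that covers counting error only, and a gene was called at a fold of 2 or more if its higher library held at least 20 counts. Library totals were 50079617 counts for ileum, 64439701 for caecum and 50772855 for colon. The table gives 2 columns per sample, labelled as replicates. Their squared differences were on average 0.421, 0.449 and 0.438 times the counting variance in ileum, caecum and colon. The columns of a sample differed by less than the sampling noise and were counted as 1 sample. No difference between segments therefore has a replicate check and none has a p-value. The 3 comparisons share libraries and are not independent of each other.

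The caecum had 1 of 10 members at least 2-fold higher than the ileum and 0 lower, where 4.59% and 2.52% of 17827 features tested were. Against the colon it had 1 higher and 0 lower, where 5.11% and 2.74% of 17900 features were. The colon had 0 members higher and 1 lower than the ileum, where 4.04% and 4.29% of 17579 features were. Among 10 genes these shares cannot be set apart from the background. The median log2 fold of the members was 0.36 for caecum over ileum, 0.04 for caecum over colon and 0.17 for colon over ileum, beside 0.01, 0.01 and -0.0042 over all features tested. At a threshold of 1.5-fold the caecum had 2 members (Sox11, Sox8) above the ileum, where 9.45% of features were, and the same 2 above the colon, where 9.55% were, and the colon had 1 (Sox18) above the ileum, where 8.02% were. With the interval wholly beyond 2-fold the caecum had 1 member (Sox11) above the ileum and 0 above the colon, where 2.23% and 2.86% of features were, and the colon had 0 below the ileum, where 2.4% were. At this depth an interval that leaves out 1 is common. It did so for 9, 8 and 7 of the 10 members, in the same order, and for 59.3%, 56% and 52.7% of all features tested.

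**Figure D1:**
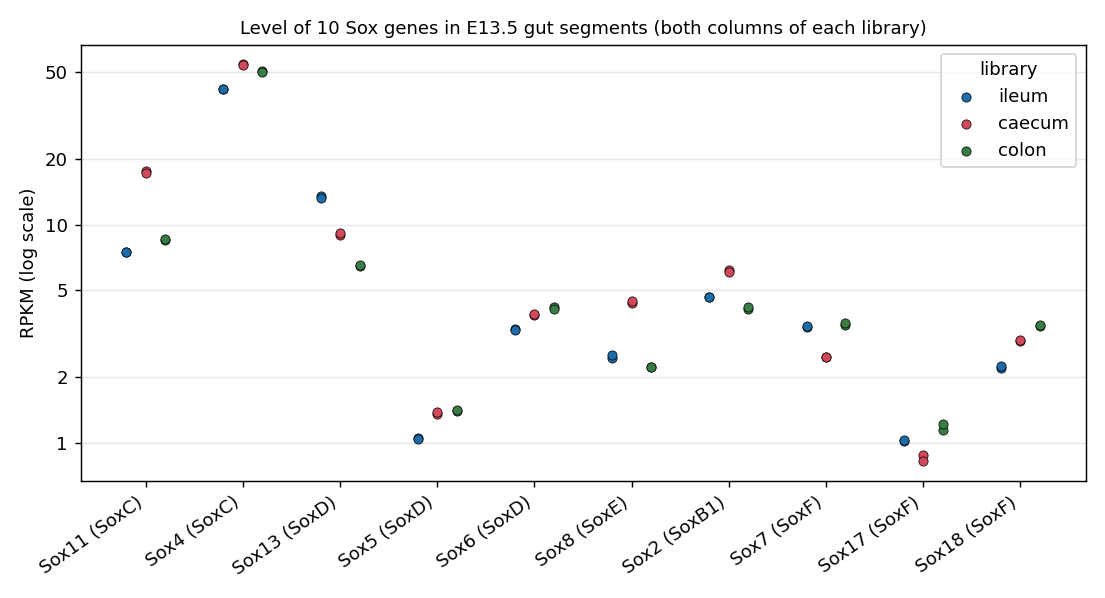
RPKM (log axis) of the 10 Sox genes in ileum, caecum and colon libraries, with 2 points per library for the 2 deposited columns and the Sox group in brackets. Sox4 is the most abundant at 42.1 to 54.3 RPKM and Sox17 among the least at 0.849 to 1.18, and the caecum point of Sox11 stands apart from the other segments.

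Of the SoxC genes in the set, Sox11 and Sox4 were both highest in the caecum and lowest in the ileum, and Sox4 varied less. Sox11 had 755 counts in the ileum, 2262 in the caecum and 876 in the colon, or 7.49, 17.4 and 8.57 RPKM. It was 2.30-fold (2.12 to 2.50) higher in caecum than ileum and 2.04-fold (1.89 to 2.21) higher than in colon. The first interval lies wholly beyond 2-fold and the second does not. The colon and ileum were close, at 1.13-fold (1.02 to 1.24). In whole segments, more cells that express a gene and more RNA per cell cannot be told apart.

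Sox4, which acts beside Sox11 in many embryonic tissues, was the most abundant of the 10 genes and made up 51.9%, 52.8% and 58.9% of their summed RPKM in ileum, caecum and colon. It had 42.1, 54.3 and 50.4 RPKM from 10104, 16793 and 12276 counts. It was 1.28-fold (1.25 to 1.31) higher in caecum than ileum and 1.08-fold (1.06 to 1.11) higher than in colon. The counting intervals of Sox11 and Sox4 do not overlap in either comparison of the caecum. They overlap for colon over ileum, where Sox4 was at 1.18-fold (1.15 to 1.21). The Sox11 level was 0.178, 0.321 and 0.170 times that of Sox4 in ileum, caecum and colon, highest in the caecum.

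Enteric neurons are one place where SoxC genes act, and their markers had another profile. All 13 markers of the neuron list stayed within 2-fold between caecum and ileum, with a median log2 fold of 0.10, while Sox11 was at 1.20. Against the colon, 11 of 13 were at least 2-fold higher in caecum and 0 lower, with Th, the enzyme that starts catecholamine synthesis, at 13.7-fold (6.09 to 38.2) and Tlx2, a homeobox gene of enteric neurons, at 7.66-fold (5.98 to 9.95). In colon against ileum, 10 of 13 were at least 2-fold lower and 0 higher, with a median log2 fold of -1.24, while Sox11 was at 0.17. The summed level of the list was 180.8, 209.0 and 92.2 RPKM in ileum, caecum and colon, with no marker at 0. Their part in the Sox11 difference was not tested.

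By the distance between log2 profiles over the 3 libraries, the genes nearest to Sox11 were Amot, an angiomotin of cell junctions, Zbtb16, a zinc finger factor, and Nrcam, a neuronal adhesion molecule. Amot had 6142, 18507 and 7354 counts in ileum, caecum and colon, and lay 0.034 from Sox11 in log2 units. Zbtb16 and Nrcam lay 0.043 and 0.050 away. With 3 libraries many profiles are alike, and 68 of 12071 candidate genes lay within 0.25.

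The Sox11 row (ENSMUSG00000063632, mm9, chromosome 12, 28025562 to 28027574) spans 2013 bases on the minus strand, while the longest Sox11 transcript of GENCODE vM21 has 8311. Reads outside these 2013 bases are not in the Sox11 value, so its level per length rests on a part of the transcript. The main Sox4 row (ENSMUSG00000076431, chromosome 13, 29040788 to 29045582) and the Sox4 transcript both have 4795 bases. Its second row (ENSMUSG00000078309) spans 405 bases within it and had 1104, 2016 and 1526 counts, 1.40-fold (1.30 to 1.51) higher in caecum than ileum. Gm17419, on the other strand, overlaps Sox4 and had 5894, 9762 and 7276 counts. The use of strand in counting is not given in the sources used here, so reads of the pair could not be told apart.

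**Figure D2:**
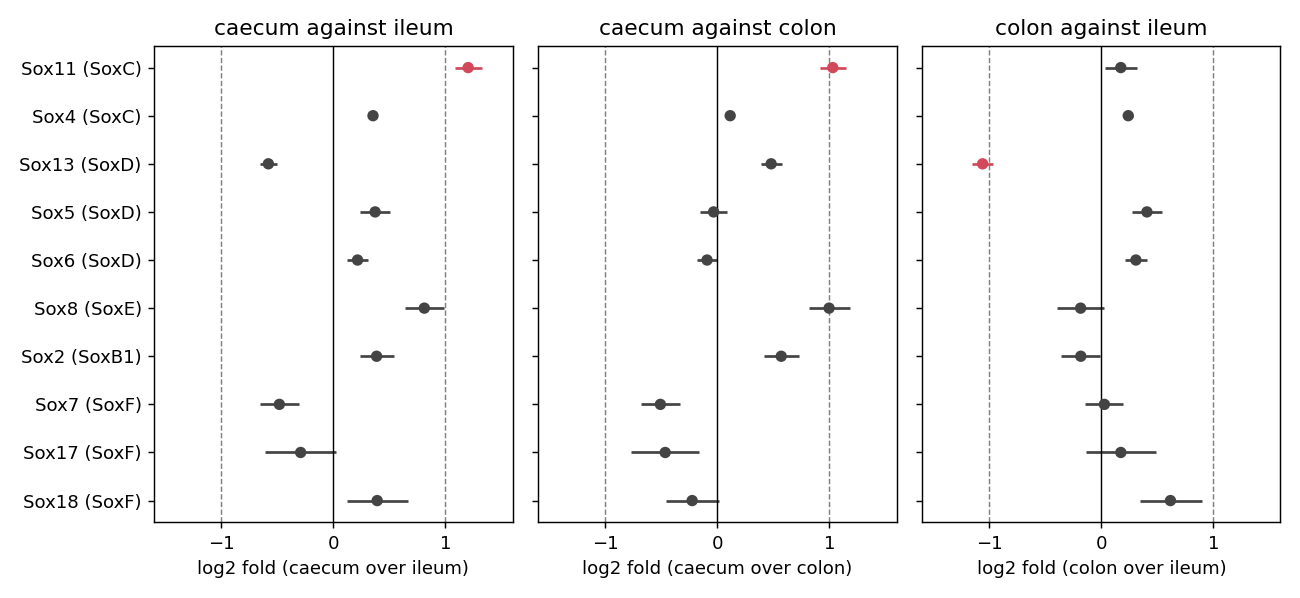
Log2 fold of the scaled counts of the 10 Sox genes in the 3 comparisons, with bars for the 95% counting interval, dashed lines at 2-fold and red for genes called. Sox11 is called in both comparisons of the caecum and Sox13 in colon against ileum, and the point of Sox8 for caecum over colon touches the line at 1.997-fold.

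Of the SoxD genes, Sox13 formed a gradient from ileum to colon, and Sox5 and Sox6 ran slightly the other way. Sox13, known as a diabetes autoantigen and from T cells, had 13.4, 9.05 and 6.51 RPKM in ileum, caecum and colon, from 2892, 2514 and 1426 counts. It was 2.09-fold (1.96 to 2.22) higher in ileum than colon, and the interval reaches below 2-fold. It was 1.496-fold (1.42 to 1.58) higher in ileum than caecum and 1.39-fold (1.31 to 1.49) higher in caecum than colon, so each step of the order was larger than counting error.

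Sox5, a partner of Sox9 in cartilage, was the least abundant SoxD gene, at 1.04, 1.36 and 1.40 RPKM from 750, 1263 and 1023 counts. It was 1.29-fold (1.18 to 1.42) higher in caecum and 1.33-fold (1.21 to 1.46) higher in colon than ileum. The caecum and colon did not differ beyond counting error, at 0.977-fold (0.899 to 1.06). Sox6, which pairs with Sox5 in cartilage and also acts in red blood cell precursors and muscle, had 3.29, 3.87 and 4.14 RPKM from 1460, 2205 and 1860 counts. It was 1.16-fold (1.09 to 1.24) higher in caecum and 1.24-fold (1.16 to 1.33) higher in colon than ileum, with colon over caecum at 1.07-fold (1.002 to 1.13). The intervals of Sox5 and Sox6 overlap in all 3 comparisons, and those of Sox13 overlap with neither. The Sox13 level was 4.07, 2.34 and 1.57 times that of Sox6 in ileum, caecum and colon.

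Lists of smooth muscle, cartilage, red blood cell and skeletal muscle genes were read beside the SoxD genes. Of 10 smooth muscle genes, 7 were at least 2-fold lower in caecum than ileum, and 6 were at least 2-fold lower in colon than ileum and 0 higher, with Myh11, the smooth muscle myosin, 3.12-fold (3.06 to 3.18) and Actg2, an actin, 2.22-fold (2.18 to 2.26) higher in the ileum. Their summed level was 1212, 476 and 647 RPKM in ileum, caecum and colon. For caecum over colon 8 of the 10 had an interval below 1, while Myh11, at 1.03-fold (1.005 to 1.05), and Des, the muscle filament desmin, at 1.57-fold (1.47 to 1.66), were above it. Of 10 tested cartilage matrix genes, 5 were at least 2-fold higher in colon than ileum and 0 lower. Of their intervals 8 lay above 1 and 2 below. For caecum over colon the list was mixed, with 2 of 11 tested at least 2-fold higher and 3 lower. Acan, the cartilage proteoglycan, had 0, 6 and 26 counts in ileum, caecum and colon, and reached the count minimum in the colon only. Against a floor of 3 counts it was 8.42-fold higher in colon than ileum, and the lower limit of its interval was 6.38. Matn4, a matrilin, stood at 6.87-fold (6.17 to 7.66) for the same pair, and Matn1 had 0 counts in every library. The summed level of that list was 24.3, 41.4 and 54.1 RPKM. The 10 red blood cell genes, of which 8 or 9 were tested, summed to 1722, 1712 and 1713 RPKM, with none 2-fold apart. Myod1 and Myog, the factors that define skeletal muscle, had at most 2 counts in any library, and the list of 6 summed to 0.607, 0.559 and 0.203 RPKM. The part of these cell types in the SoxD values was not tested.

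Among the genes nearest to Sox13 by profile were Pirt, a regulator of TRP channels in sensory neurons, at a distance of 0.031, and Mgam, a brush border enzyme that digests starch, at 0.037. Mgam had 4593, 3851 and 2232 counts in ileum, caecum and colon. Within 0.25 of Sox13 lay 118 of 12071 candidates. The Sox13 row lies in mm9 at chromosome 1, 135278880 to 135320954, and overlaps no other feature of the table. Sox5 (chromosome 6, 143776945 to 144730497) and Sox6 (chromosome 7, 122614858 to 123182258) are long genes whose counted lengths, as implied by the ratio of counts to RPKM, were 14377 and 8853 bases. For Sox5 this exceeds the longest GENCODE vM21 transcript, of 7243, so a level per length read from one transcript would differ.

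Sox8 and Sox2, which act in neural crest and in neural progenitors, were both highest in the caecum. Sox8 had 388, 886 and 351 counts in ileum, caecum and colon, or 2.48, 4.41 and 2.22 RPKM. It was 1.76-fold (1.56 to 1.98) higher in caecum than ileum and 1.997-fold (1.76 to 2.27) higher than in colon, just short of the threshold. The second deposited column alone put it past 2-fold. Colon and ileum did not differ beyond counting error, at 0.879-fold (0.759 to 1.02).

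Sox2 had 572, 972 and 518 counts, or 4.64, 6.14 and 4.15 RPKM. It was 1.31-fold (1.18 to 1.45) higher in caecum than ileum and 1.48-fold (1.33 to 1.65) higher than in colon, with ileum over colon at 1.14-fold (1.01 to 1.28). The intervals of Sox8 and Sox2 do not overlap in either comparison of the caecum. Sox2ot, a long transcript that runs across Sox2 on the same strand, had 234, 447 and 144 counts, and reads of the shared bases cannot be told apart.

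Sox2 is known in the gut both from foregut epithelium and from enteric neural crest. Markers of the foregut and stomach were nearly absent here. The 10 genes of that list summed to 0.409, 0.320 and 0.295 RPKM, with Barx1, a stomach mesenchyme factor, at 4, 7 and 1 counts and Pdx1, a factor of the duodenum and pancreas, at 0, 1 and 0. Cldn18, a stomach claudin, was the only one with over 20 counts, at 29, 8 and 1 in ileum, caecum and colon. Crest progenitor and glial markers were abundant, at 201.5, 189.4 and 131.3 RPKM in sum. Of 11 tested, 1 was at least 2-fold higher in caecum than ileum and 0 lower, with a median log2 fold of 0.10. Of these intervals 5 lay above 1, 5 below and 1 covered it. Against the colon 3 were higher in caecum and 0 lower, with a median of 0.73. For colon over ileum 0 of 10 tested were higher and 4 lower. The median there was -0.66, while Sox8 and Sox2 stood at -0.19 and -0.18.

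The genes that led the crest list differed in their order. Tcfap2b (now Tfap2b), an AP-2 factor, had 2, 84 and 2 counts in ileum, caecum and colon. Fabp7, a fatty acid binding protein of glial precursors, had 840, 595 and 106 counts, with ileum over caecum at 1.84-fold (1.65 to 2.04). Sox10, the SoxE gene of crest cells, had 14.4, 19.0 and 10.4 RPKM and was 1.30-fold (1.23 to 1.38) higher in caecum than ileum and 1.84-fold (1.72 to 1.95) higher than in colon. Sox8 was thus 0.81 in log2 above the ileum, against 0.38 for Sox10 and 0.39 for Sox2. The part of crest cells in these values was not tested.

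The SoxF genes, read as vessel genes, showed small differences, and Sox18 differed from Sox7. Sox7 had 562, 523 and 589 counts in ileum, caecum and colon, or 3.41, 2.46 and 3.52 RPKM. It was 1.40-fold (1.24 to 1.58) higher in ileum and 1.42-fold (1.26 to 1.605) higher in colon than caecum, while colon and ileum did not differ beyond counting error, at 1.02-fold (0.906 to 1.15). Sox17, also a gene of early endoderm and of arteries, was sparse, at 1.03, 0.849 and 1.18 RPKM from 162, 172 and 188 counts. It was 1.38-fold (1.12 to 1.71) higher in colon than caecum, while caecum over ileum, at 0.816-fold (0.655 to 1.02), and colon over ileum, at 1.13-fold (0.909 to 1.40), lay within counting error. Its intervals overlap with those of Sox7 in all 3 comparisons.

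Sox18, known for its roles in blood and lymph vessels, had 180, 307 and 284 counts, or 2.22, 2.94 and 3.45 RPKM. It was lowest in the ileum, with the caecum 1.31-fold (1.09 to 1.59) and the colon 1.53-fold (1.27 to 1.86) higher. The caecum and colon did not differ beyond counting error, at 0.855-fold (0.725 to 1.01). The intervals of Sox18 and Sox7 do not overlap for caecum over ileum or for colon over ileum. The Sox18 level was 0.651, 1.20 and 0.982 times that of Sox7 in ileum, caecum and colon. Sox18 was thus the less abundant of the pair in the ileum, nearly equal in the colon and the more abundant in the caecum.

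Endothelial markers, read beside these genes, differed little in size but in a shared direction between caecum and colon. All 15 blood endothelial genes stayed within 2-fold in the 3 comparisons, and their summed level was 123.1, 115.9 and 140.3 RPKM in ileum, caecum and colon. For caecum over ileum they ran from 0.807 to 1.26-fold with a median of 0.937. Of their intervals 8 lay below 1, 5 covered it and 2 lay above. Sox7, Sox17 and Sox18 stood at 0.715, 0.816 and 1.31-fold there, the interval of Sox17 covering 1. All 15 had an interval below 1 for caecum over colon, with a median of 0.814-fold, and Sox7, Sox17 and Sox18 stood at 0.702, 0.724 and 0.855-fold, the interval of Sox18 covering 1. For colon over ileum the median was 1.15-fold, with 11 intervals above 1, 3 that covered it and 1 below, that of Eng, a TGF-beta co-receptor, at 0.900-fold (0.863 to 0.937). The genes farthest above were Cldn5 and Emcn. Cldn5, an endothelial claudin, was at 1.69-fold (1.44 to 1.97) and Emcn, a sialomucin of veins and capillaries, at 1.43-fold (1.32 to 1.55). As a share of that sum, Sox7 stood at 2.77%, 2.12% and 2.51%, Sox17 at 0.833%, 0.732% and 0.839% and Sox18 at 1.80%, 2.54% and 2.46%. Per endothelial sum, Sox7 was lowest in the caecum and Sox18 lowest in the ileum.

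Markers of vessel subtypes gave no single order. Of 11 arterial and venous genes, 1, Efnb2, was 2-fold apart, at 2.10-fold (2.03 to 2.18) higher in ileum than colon, but this ephrin ligand is also expressed outside vessels. Of 6 lymphatic genes, Lyve1, a hyaluronan receptor, was 2.32-fold (1.77 to 3.05) higher in ileum than caecum, while Reln, a secreted glycoprotein of lymph vessels, was 2.69-fold (2.35 to 3.08) higher in colon than ileum. Ccl21a, a chemokine of lymph vessels, had 6, 2 and 36 counts in ileum, caecum and colon, with colon over caecum at 22.8-fold (5.86 to 195.1) and colon over ileum at 5.83-fold (2.43 to 16.9). Flt4, a VEGF receptor of lymph vessels, was 1.55-fold (1.40 to 1.71) higher in colon than caecum. Prox1, the factor that Sox18 is known to switch on in lymphatic precursors, had 119, 244 and 148 counts. Scaled, Prox1 was 1.58-fold (1.26 to 1.98) higher in caecum than ileum and 1.30-fold (1.06 to 1.61) higher than in colon. Its colon and ileum did not differ beyond counting error. The 6 lymphatic genes summed to 10.6, 12.6 and 12.2 RPKM, of which Pdpn alone gave 7.03, 9.13 and 7.01. The arterial and venous genes summed to 158.5, 157.2 and 151.3 RPKM. Of this Ephb4 gave 62.0, 77.2 and 72.7 and Efnb2 42.6, 31.5 and 20.6. Both sums thus rest largely on Pdpn or on Ephb4 and Efnb2, and need not track vessels. The median over the 11 genes was 1.10-fold for colon over ileum, with 6 intervals above 1, 3 below and 2 covering it. For caecum over colon it was 0.841-fold, with 3 above, 6 below and 2 covering it. The pericyte list, with 3 of 6 genes at least 2-fold lower in caecum than ileum, summed to 89.1, 43.0 and 84.1 RPKM. Sox7 and Sox17 had their lowest scaled values in the caecum, Sox17 within counting error of the ileum, while Sox18 had its lowest in the ileum. The part of these cells in the SoxF values was not tested.

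**Figure D3:**
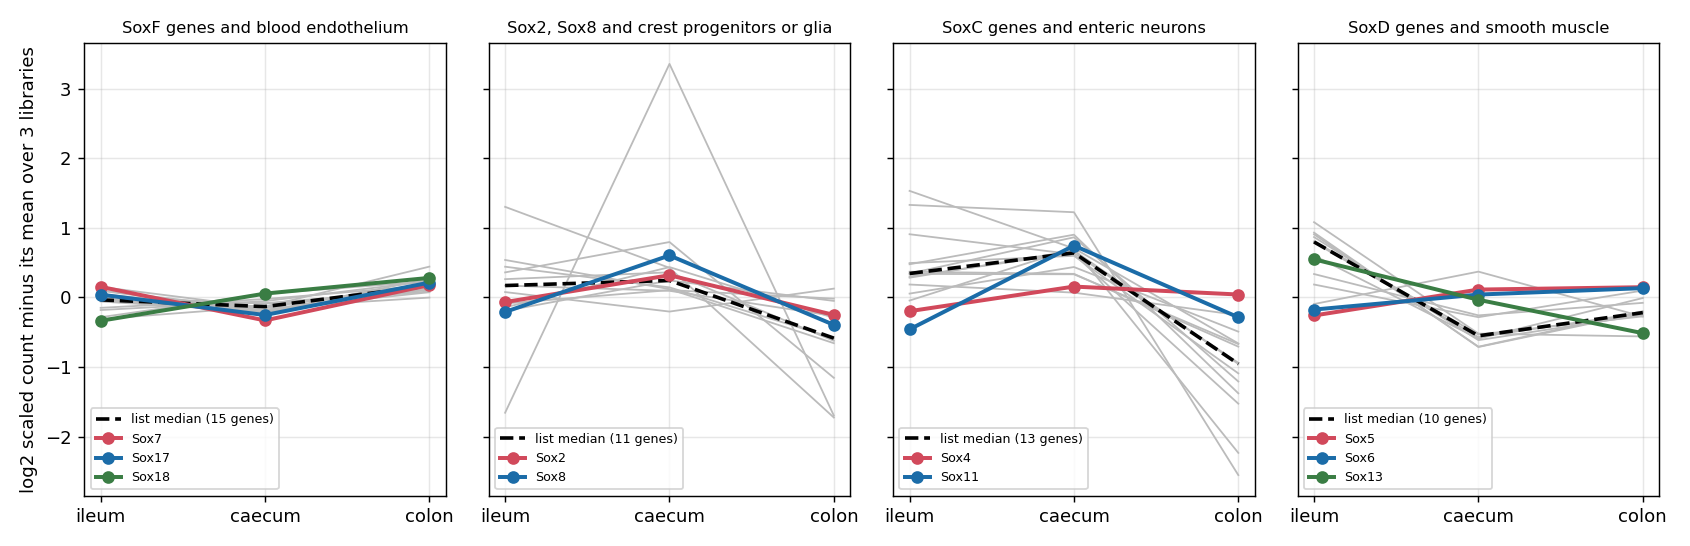
Log2 scaled counts, minus each gene's mean over the 3 libraries, for members of each Sox group (coloured) and the genes of a cell type list (grey, median dashed), with the lists of 15 blood endothelial, 11 crest, 13 neuronal and 10 smooth muscle genes drawn. Sox18 departs from Sox7 in the ileum and the caecum. Sox11 stands below the neuronal median in the ileum, near it in the caecum and above it in the colon.

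The Sox genes outside the set were read as the rest of the family. Sox12, the third SoxC gene, was even across the gut, at 20.2, 21.3 and 20.8 RPKM in ileum, caecum and colon, a level between those of Sox4 and Sox11. Sox9, the SoxE gene of epithelial progenitors and cartilage, stayed within 2-fold at 4.17, 3.96 and 3.41 RPKM. Sox21, a SoxB2 gene, had few counts, at 5, 18 and 61. The colon exceeded the caecum 4.28-fold (2.50 to 7.70) and the ileum 11.9-fold (4.81 to 37.8). Sox30 had 6, 21 and 22 counts, Sox3 and Sox15 stayed under 20 counts, and Sox14 and Sry had 0 counts in every library, where a count of 0 allows up to 3. Sox1 was not matched by name. Of the tested genes of this list, 1 of 4 (Sox30) was 2-fold higher in caecum than ileum, where 4.59% of all features were. For caecum over colon 1 of 5 (Sox21) was lower, where 2.74% of features were. For colon over ileum 2 of 5 (Sox21, Sox30) were higher, where 4.04% were. Sox21 reached the count minimum in the colon only, and Sox30 in the caecum and colon only.

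Among segment markers, Gata4, a factor of the proximal gut, was highest in the ileum, at 702, 4 and 58 counts, though higher in colon than caecum. Hoxd13, a gene of the hindgut, was highest in the colon, at 1, 13 and 2354. Lists of 13 mesenchyme, 15 epithelial, 10 proliferation and 10 housekeeping genes had at most 2 genes apart in either direction of any comparison. Their summed levels ran from 940.1 to 998.3, 265.0 to 309.1, 452.7 to 528.6 and 1283 to 1399 RPKM over the 3 libraries. In the mesenchyme list, Lum, a proteoglycan of collagen fibrils, had 8862, 6122 and 760 counts in ileum, caecum and colon, and Twist1, a factor of mesenchyme, had 182, 734 and 804. The mesothelial list ran from 38.5 to 54.6 RPKM. Among the main rows of the 10 members, 0 of 45 pairs shared a stretch of 50 bases between their GENCODE vM21 transcripts.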

How the data were processed

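Polyadenylated RNA of 3 gut segments, 1 sample each, was sequenced as paired reads of 100 bases, per the labels' protocols. Bowtie 0.12.7, DESeq and the build mm9 are listed in the submitters' processing notes without saying how each was used. The counter, the release of the annotation and strand use are not given in the sources used here. The deposited table gives expected counts, which need not be whole, and RPKM by the authors, per the file headers. The 2 columns of each sample were averaged and the mean count rounded.

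Libraries were scaled with TMM factors (edgeR 4.0.16, R 4.3.3). A fold is a ratio of scaled counts, with an exact 95% Clopper-Pearson interval that covers counting error only. Features were compared where the higher library held at least 20 counts, and 3 counts stood in for 0. The folds were tested on simulated counts that held counting error only, so this cannot speak to spread between animals. Depth and detection stand in the report.

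The members and the 18 gene lists were chosen with earlier results of these data known. All members and other Sox genes are named. From other lists, names were drawn from the 2 genes whose interval lies farthest from 1 in a comparison and defining markers at 0, and not all of these are printed. For each called gene, the 3 nearest profiles among genes with at least 100 counts were chosen, of which 1 is not reported here. Prox1, Pdpn, Ephb4, Barx1, Pdx1, Myod1 and Myog were named after their values were seen. Positions in mm9 count from 1. Alternatives were DESeq2 1.42.0 size factors, other thresholds and each column alone.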

Additional observations from a re-analysis of the deposited data

How the results depend on the processing

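All 180 member folds recomputed under 6 alternatives (other scalings, ratios of RPKM, each column alone) stayed within their counting intervals and on the same side of 1, differing by at most 1.06 times from the value reported. Counts of members moved with the threshold. At 1.5-fold in place of 2-fold, 2 members (Sox11, Sox8) were higher in caecum than ileum, 2 (Sox11, Sox8) higher in caecum than colon and 1 (Sox18) higher in colon than ileum. With the interval wholly beyond 2-fold, 0 members were higher in caecum than colon and 0 lower in colon than ileum. With 1 column in place of the mean, the count higher in caecum than colon ran from 1 to 2, Sox8 being added by the second column. No paired analysis was possible because each tissue has 1 sample, and the 2 numbered columns of a sample, read as the same library, give no replicates to pair. Depth allows small folds to be told from counting error, but not from differences between animals. Sox17, with 162 to 188 counts, has the widest intervals of the members.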
